A study of Sus scrofa with 8 samples.

Results

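Collagen chain genes were followed through 8 biopsies of Yorkshire swine skin. They were taken as every gene of the series count table whose symbol reads COL, a number, A and a number, without antisense genes and with 1 entry per Ensembl gene. This gave 39 of 31907 genes, and 38 of the 39 passed the filter on low counts. The skin came from 2 wild-type pigs, pig 13 and pig 14. In each pig, 2 sites received 200 ng of IL-15, a cytokine that signals through JAK1 and JAK3, by intradermal injection (volume 100 µl, in saline), with biopsy after 3 h. Another 2 sites in each pig were biopsied with no injection, so the 4 injected and 4 control biopsies differ by needle and saline as well as by IL-15. The injected sites were 12d and 12c of pig 14 and 12e and 12c of pig 13. The control sites were 7e and 6b of pig 14 and 7b and 6b of pig 13. Values of single biopsies follow this order of sites, with the controls of a pig before its injected sites. All injected sites thus carried the grid number 12 and all controls 6 or 7, so treatment and place on the skin cannot be told apart. RNA was total RNA of the whole biopsy after ribosomal depletion. In such bulk tissue, fewer cells of a type and less RNA per cell cannot be told apart.

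Collagens are secreted or membrane proteins in which 3 chains wind into a triple helix. Fibrillar collagens, mainly types I and III in skin, are made by dermal fibroblasts and form the fibres that give the dermis its strength. Type V chains join these fibrils and limit their width, and the fibril-associated collagens with interrupted helices, called FACITs, sit on their surface. Type VI forms beaded microfilaments, and type IV forms the network of basement membranes. At the junction of epidermis and dermis, type XVII is a transmembrane protein of the keratinocyte hemidesmosome and type VII forms the anchoring fibrils beneath it.

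Total counts assigned to genes were between 28471089 and 36070107 per biopsy. Genes annotated as rRNA outside the mitochondrial genome took 0.221% to 0.528% of a library at injected sites and 0.557% to 1.58% at control sites. These ranges did not overlap, and the part of this in the comparisons below was not tested. HOXA10, a transcription factor that marks position along the body axis, was at 2.83 to 7.44 CPM at the injected sites and 0.0273 to 0.153 CPM at the controls. CPM is the count of a gene relative to the TMM-scaled total of its library. Markers of fibroblasts (9 of 9), basal keratinocytes (7 of 7) and differentiated keratinocytes (5 of 7) were found in the table, and each was detected in every biopsy. Among 6 leukocyte markers LYZ had no count in any biopsy. The biopsies of a group come from only 2 animals, so p-values measure the spread between sites of these pigs. In the fit with pig and treatment, this spread includes any difference in response between the pigs. Between pigs each side is a single animal with its biopsies taken as replicates, so those p-values do not measure the spread between animals.

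Collagen chains took between 3.10% and 19.3% of all counts of a biopsy. In pig 14 the share was 16.8% and 19.0% in the controls and 14.5% and 19.3% in the injected sites. In pig 13 it was 3.10% in control 7b, 9.53% in control 6b, and 9.50% and 12.6% in the injected sites. The 4 biopsies of pig 14 were all above the 4 of pig 13, and site 7b was the lowest. Injected sites had 14.0% ± 4.10 and controls 12.1% ± 7.25 (SD, n = 4), so the groups overlapped widely. The share was 4.72 percentage points higher at injected sites in pig 13 and -1.01 points different in pig 14, a mean of 1.85 against a spread of 3.12 (SD) between sites of 1 pig and group. Without control 7b this mean was 0.246 points.

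**Figure D1:**
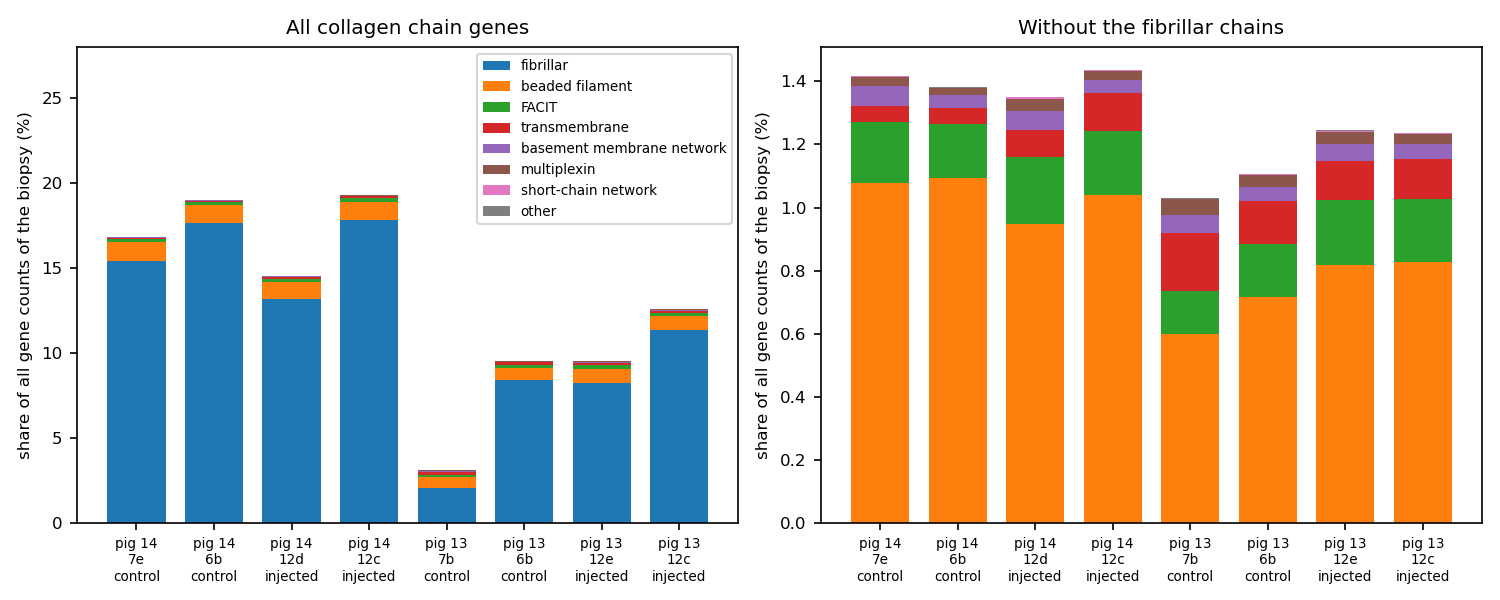
Stacked bars of the percent of all gene counts held by each structural class of collagen chain genes, 1 bar per biopsy, with all classes on the left and without the fibrillar class on the right. Fibrillar chains run from 2.07% in control 7b of pig 13 to 17.8% in injected 12c of pig 14, and the beaded filament class, next in size, from 0.599% to 1.09%.

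Only 3 genes carried most of this share. COL1A1, COL1A2 and COL3A1, the chains of types I and III, made up 63.0% of collagen counts in control 7b and 84.4% to 90.8% in the other 7 biopsies. By mean CPM, COL1A1 drew more counts than any other gene, with rank 1 to 8 in the single biopsies, and COL3A1 and COL1A2 ranked 3 and 4. Per kilobase of gene length the mean levels were 10831 CPM per kb for COL1A1, 5240 for COL3A1 and 5190 for COL1A2. The next in order were COL6A2 (697), COL6A1 (579), COL6A3 (369), COL5A1 (212), COL17A1 (167) and COL5A2 (117 CPM per kb). COL6A2 lies on an unplaced scaffold with 19 annotated exon blocks over 2952 bases, so its level per length rests on a partial gene model. In mean CPM, 16 of the 39 members were at 100 or more, 9 between 10 and 100, 8 between 1 and 10, and 6 under 1.

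The first comparison asked whether collagen chains had changed 3 h after IL-15. In edgeR's quasi-likelihood test with the pig in the model, 0 of the 38 members passed an adjusted p of 0.05 in either direction. Of all 19862 genes tested, 0.0352% were called higher and 0% lower. At an unadjusted p under 0.05 there were 3 members, COL12A1, COL8A1 and COL13A1, or 7.89%, against 4.54% of all genes tested. DESeq2 called 1 member, COL12A1, higher, and 0.242% of all genes (48 of 19862) higher. The median log2 difference of the members was 0.11 against -0.0078 for all genes. Above 0 were 26 members and below it 12, and 48.2% of all genes were above 0. The median of the members was 0.041 without control 7b, 0.22 in pig 13 alone and -0.10 in pig 14 alone. In both pigs at once, 2 members, COL12A1 and COL16A1, had every injected site above every control site of the same animal, which was 5.26% of members against 3.11% of all genes. The reverse order was seen in 0 members, against 2.83% of all genes.

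**Figure D2:**
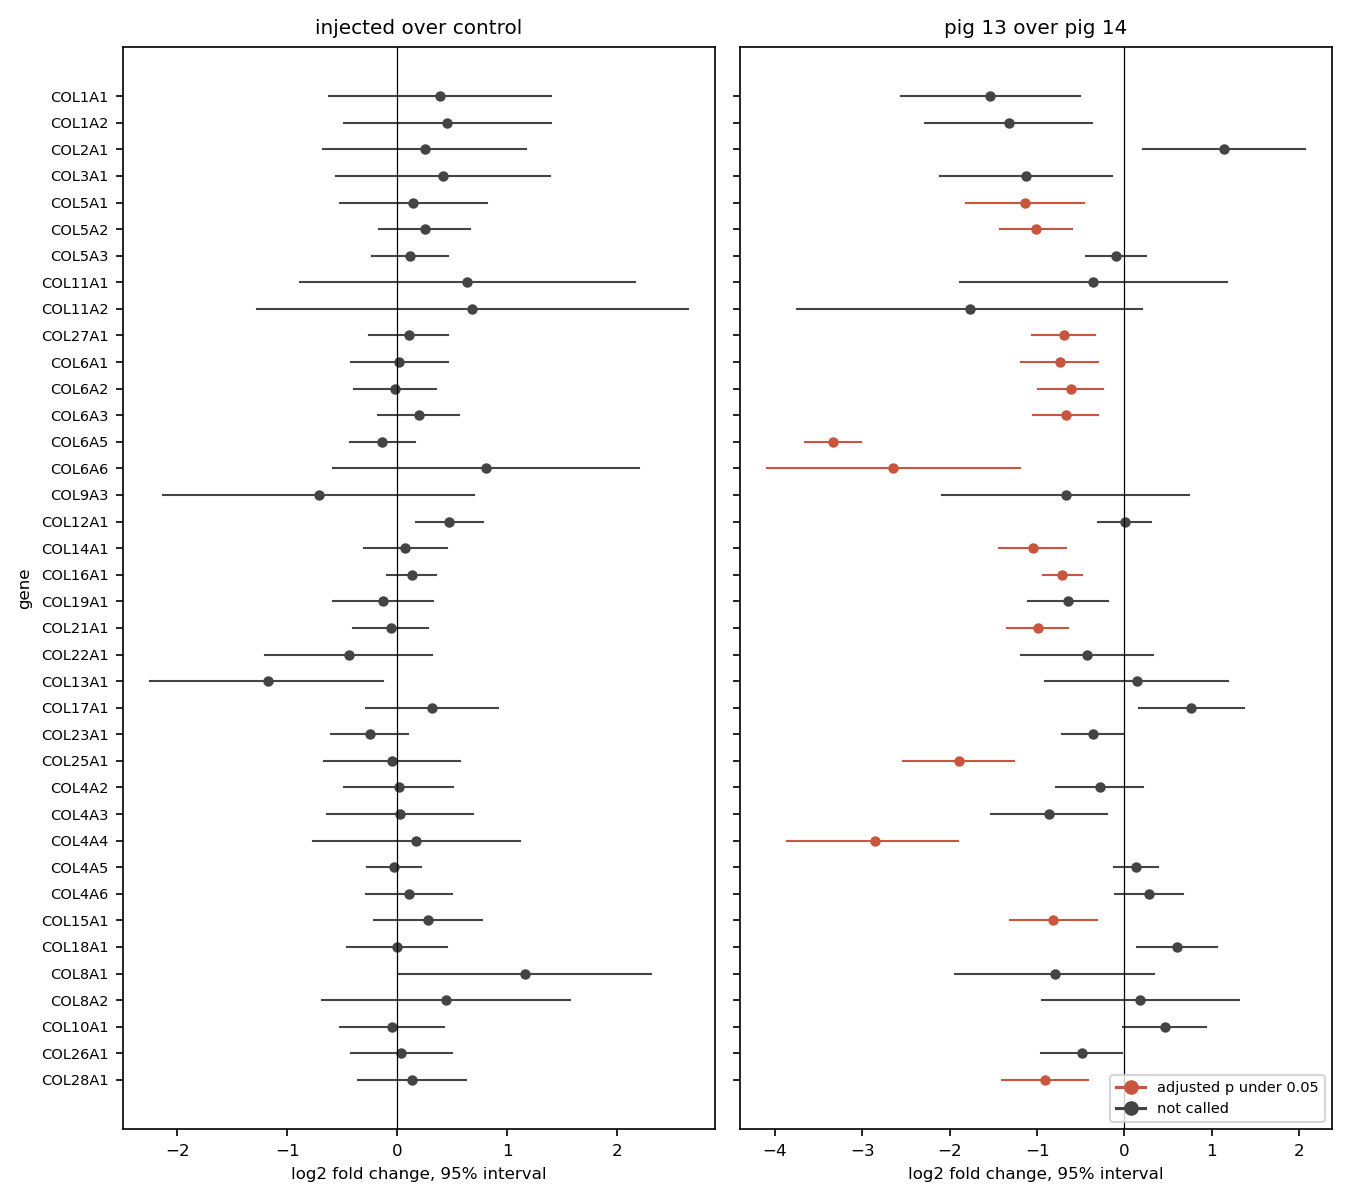
Points are the log2 fold change of each tested collagen chain gene and lines its 95% confidence interval, for injected over control on the left and pig 13 over pig 14 on the right, with members passing an adjusted p of 0.05 in red. No member is red on the left, and the 15 red members on the right all lie below 0, down to -3.34 for COL6A5.

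COL12A1 codes for the chain of type XII, a FACIT of dermis, tendon and other fibrous tissue (ENSSSCG00000004484, chromosome 1, 90744429 to 90875118 in Sscrofa11.1). In pig 14 it was at 1023 and 889 CPM in controls and 1241 and 1310 CPM at injected sites. In pig 13 it was at 793 and 1050 CPM in controls and 1367 and 1296 CPM at injected sites. All 4 injected sites lay above all 4 controls, also across pigs, with a ratio of means of 1.33 in pig 14 and 1.45 in pig 13. The log2 difference was 0.47 ± 0.14 (SE, 95% interval 0.17 to 0.78), with an adjusted p of 0.895 in edgeR and 0.0492 in DESeq2. Leaving out any 1 biopsy gave values between 0.39, without control 7b, and 0.55, without control 6b of pig 13. COL12A1 did not follow the pigs, with a pig difference of 0.0043 ± 0.14.

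COL8A1 and COL13A1 rested on low or uneven values. COL8A1, a short-chain collagen of endothelial matrices, was at 11.09 and 8.32 CPM in controls and 41.9 and 7.87 at injected sites of pig 14. In pig 13 it was at 5.14 and 7.74 CPM in controls and 12.2 and 12.9 at injected sites. The high value was that of a single biopsy, injected 12d. COL13A1, a transmembrane collagen, stayed between 0.159 and 0.901 CPM in every biopsy, with a log2 difference of -1.18 ± 0.48. COL23A1, also transmembrane, and the FACIT COL22A1 had the next smallest p among members below 0, with log2 differences of -0.25 ± 0.16 and -0.44 ± 0.34.

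Among the fibrillar chains, the genes of types I and III had overlapping levels at injected and control sites. In CPM their levels were separate in the 2 animals, for COL3A1 only narrowly. COL1A1 (ENSSSCG00000036135, chromosome 12, 26379090 to 26397003) was at 91106 and 99273 CPM in controls and 73252 and 102530 CPM at injected sites of pig 14. Pig 13 had 8115 and 38265 CPM in controls and 37281 and 48842 CPM at injected sites. COL1A2, the second chain of type I, was at 35104, 43558, 30176 and 42001 CPM in pig 14 and 4617, 16402, 16427 and 26673 CPM in pig 13, controls first. Every pig 14 biopsy was above every pig 13 biopsy for both genes, and control 7b was the lowest. COL3A1, the type III chain, was at 38232 and 46320 CPM in controls and 30650 and 43153 at injected sites of pig 14. In pig 13 it was at 5160 and 20250 CPM in controls and 21315 and 30439 at injected sites. As a share of all counts COL3A1 overlapped between the animals, with 2.94% in injected 12d of pig 14 and 3.18% in injected 12c of pig 13.

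**Figure D3:**
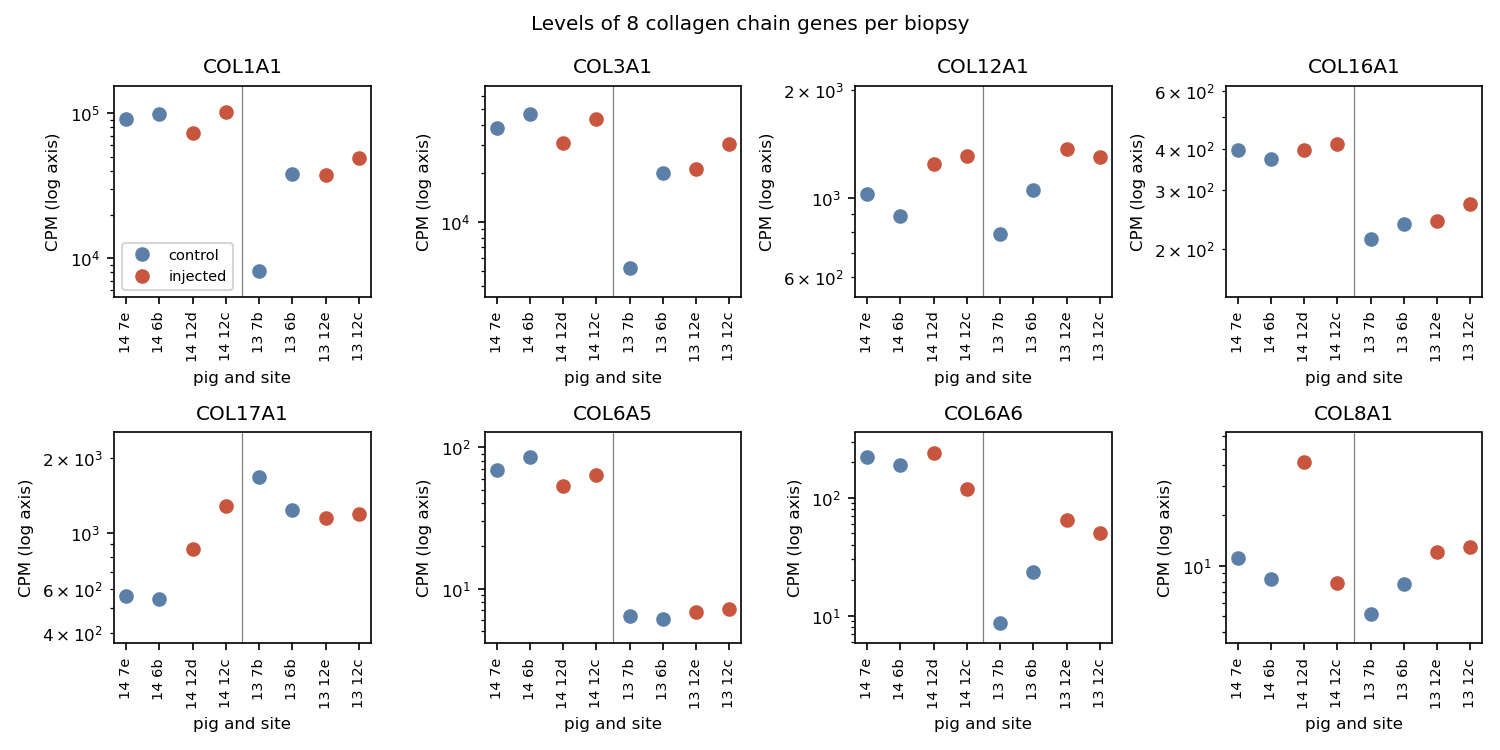
CPM of 8 collagen chain genes on logarithmic axes, 1 point per biopsy, with pig 14 left and pig 13 right of the line and controls in blue, injected sites in red. COL6A5 separates the animals at 53.3 to 84.7 against 6.14 to 7.22 CPM, COL12A1 separates injected from control sites, and COL8A1 has a single high point at 41.9 CPM.

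For injected against control the log2 difference was 0.39 ± 0.45 (SE, 95% interval -0.618 to 1.396) for COL1A1, 0.46 ± 0.42 for COL1A2 and 0.42 ± 0.44 for COL3A1. The value of COL1A1 was 0.90 in pig 13 alone and -0.10 in pig 14 alone, and -0.0021 without control 7b. Between pigs COL1A1 was at -1.53 ± 0.46 (adjusted p = 0.061 in edgeR), COL1A2 at -1.32 ± 0.43 (0.078) and COL3A1 at -1.12 ± 0.44 (0.136). DESeq2 called the 3 genes lower in pig 13. Without control 7b edgeR called COL1A1 and COL1A2 lower in pig 13 as well.

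Ratios between the chains varied less than their levels. The level per kilobase of COL1A1 was 1.58 to 2.33 times that of COL1A2, and type I protein usually holds more of the first chain than of the second. The lowest ratio was in control 7b. COL3A1 was at 0.43 to 0.48 of COL1A1 in pig 14 and 0.54 to 0.65 in pig 13, without overlap between the animals. The other fibrillar chains were lower. COL5A1, the main type V chain, was at 2463, 2694, 1989 and 2451 CPM in pig 14 and 482, 1341, 1252 and 1339 CPM in pig 13, controls first. COL5A2 was at 1113, 1123, 987 and 1076 CPM in pig 14 and 357, 502, 573 and 744 CPM in pig 13. COL5A3 ran only from 185 to 316 CPM and did not separate the animals. COL3A1 and COL5A2 lie on opposite strands of chromosome 15 and their annotated spans overlap by 3960 bases. The sources used here do not state whether reads were counted by strand, so reads from that stretch may be shared.

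The cartilage chains COL2A1, COL11A1 and COL11A2 were low, at 1.72 to 9.75, 6.67 to 54.8 and 1.12 to 19.2 CPM. COL11A1 and COL11A2 were both highest in injected 12d of pig 14. COL27A1 was at 16.5 to 37.2 CPM.

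The comparison between the animals showed the largest number of collagen differences. Pig 13 had 15 of 38 members called lower, or 39.5%, against 6.39% of all genes, and 0 members higher, against 4.34%. In DESeq2, which called 3 members higher and 19 lower, COL2A1, COL17A1 and COL18A1 were the higher ones. DESeq2 called 6.71% of all genes higher and 9.08% lower, so its share of members called higher, 7.89%, was near that of all genes. At an unadjusted p under 0.05 in edgeR there were 25 members, a threshold at which all genes were not counted for this comparison. The median log2 difference of members was -0.69 against 0.0024 for all genes. Below 0 were 29 members and above it 9, and 50.3% of all genes were above 0. In 19 of 38 members, or 50%, every pig 13 biopsy lay below every pig 14 biopsy in CPM, against 9.87% of all genes. In 0 members was every pig 13 biopsy above, against 8.73% of all genes.

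The called members were COL5A1, COL5A2 and COL27A1 of the fibrillar class, all 5 chains of type VI, the FACITs COL14A1, COL16A1 and COL21A1, and COL4A4, COL15A1, COL25A1 and COL28A1. With scaling by total counts in place of TMM, which moved the median of all genes to 0.21, 13 members were called, 10 lower and 3 higher (COL10A1, COL17A1, COL18A1). The 3 higher members are 7.89% of those tested, under the 19.8% of all genes called higher with this scaling, and 4.64% of all genes were called lower. With 1 biopsy left out, 7 to 14 members were called, while calls over all genes ran from 1142 to 2240. In these fits 18.4% to 36.8% of members and 3.57% to 6.65% of all genes were called lower. The 7 members COL4A4, COL5A2, COL6A5, COL14A1, COL16A1, COL21A1 and COL25A1 were called in all 14 fits that were run. The share of all genes called in every fit was not counted. The number of members called was 7 without injected 12e of pig 13, and 8 without injected 12c of pig 13, without control 7e or without control 6b of pig 14. Basal keratinocyte markers summed to 12180 to 20260 CPM in pig 13 and 6619 to 12690 in pig 14. Fibroblast markers summed to 2018 to 3857 CPM in pig 13 and 3254 to 4209 in pig 14. The part of either in the pig differences was not tested.

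**Figure D4:**
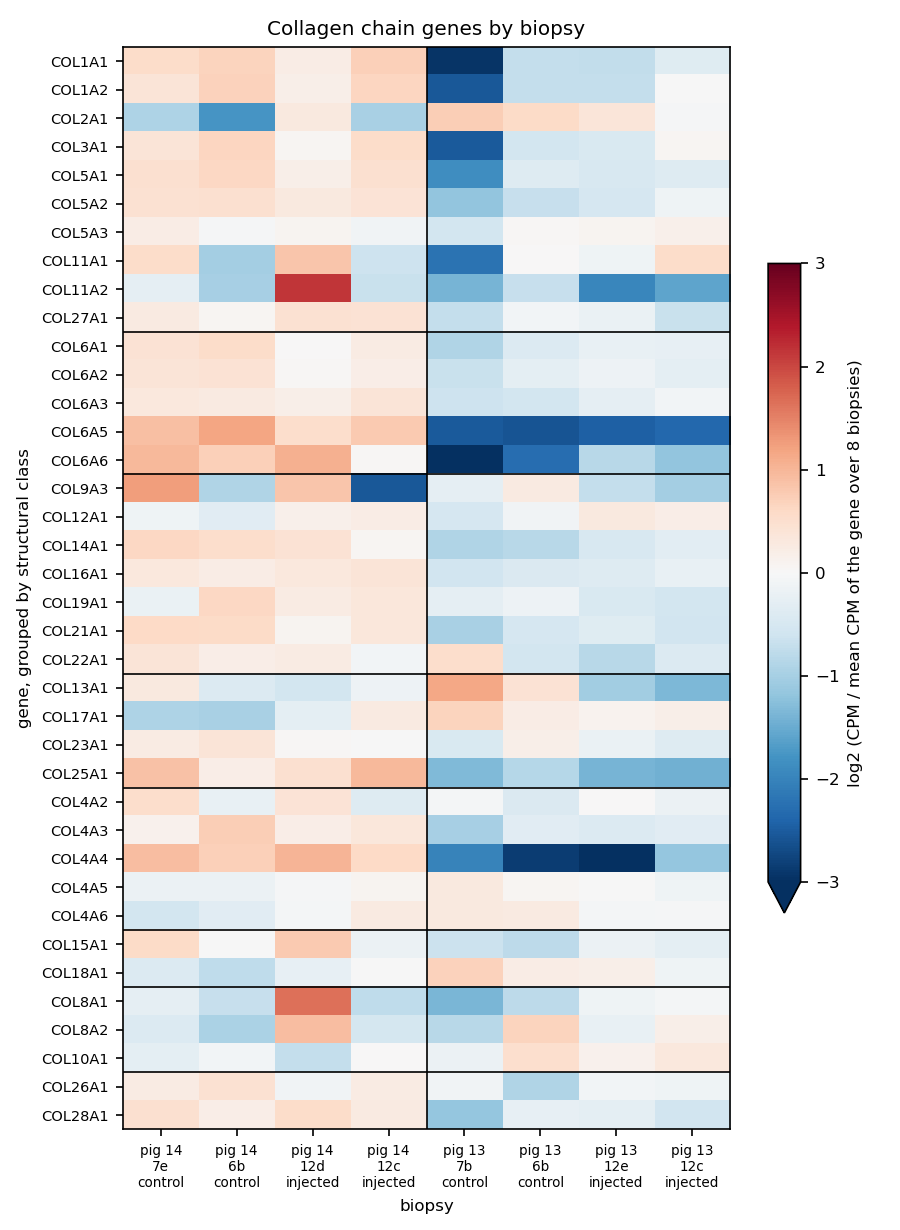
Colour shows the log2 ratio of CPM in a biopsy to the mean of that gene over the 8 biopsies, for the 38 tested collagen chain genes in rows grouped by structural class, with the colour scale ending at -3 and 3. COL5A1, COL5A2, the type VI chains, COL14A1, COL16A1 and COL21A1 are higher in every biopsy of pig 14 than in any of pig 13, and COL17A1 and COL18A1 are lowest in the controls of pig 14.

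Type VI gave the most separated members. Its molecules join the chains of COL6A1 and COL6A2 to a further chain, and COL6A5 and COL6A6 code for alternatives to COL6A3 in that place. COL6A5 (ENSSSCG00000011186, chromosome 13, 2029946 to 2174384) was at 69.2 and 84.7 CPM in controls and 53.3 and 64.0 CPM at injected sites of pig 14. In pig 13 it was at 6.45 and 6.14 CPM in controls and 6.80 and 7.22 CPM at injected sites. The 4 values of pig 13 were within a narrow range and 10.1-fold lower, at -3.34 ± 0.14 (SE, adjusted p = 5.35e-07 in edgeR). The neighbouring COL6A6 (ENSSSCG00000037430, chromosome 13, 1817404 to 1985803) was at 224, 189, 240 and 118 CPM in pig 14 and 8.69, 23.4, 65.0 and 50.7 CPM in pig 13, controls first. The pig difference was -2.65 ± 0.60 (adjusted p = 0.0416). Within pig 13 the ratio of means of injected to control sites was 3.61, and over both pigs the injection difference of 0.80 ± 0.57 did not pass the test. The ratio of COL6A6 to COL6A5 per kilobase ranged from 1.30 to 9.18, so the neighbours did not keep a fixed proportion.

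The abundant type VI chains differed between the pigs by smaller folds. COL6A3 was at 5410, 5267, 4939 and 5633 CPM in pig 14 and 2835, 2959, 3577 and 4080 CPM in pig 13, controls first, a 1.60-fold difference. COL6A1 was 1.67-fold and COL6A2 1.53-fold lower in pig 13. For injected against control the log2 differences were 0.19 ± 0.17, 0.02 ± 0.20 and -0.02 ± 0.17 for COL6A3, COL6A1 and COL6A2. COL6A1 was at 3387, 3641, 2519 and 2976 CPM in pig 14 and 1346, 1892, 2150 and 2106 CPM in pig 13. COL6A2 was at 2680, 2800, 2115 and 2370 CPM in pig 14 and 1296, 1674, 1854 and 1670 CPM in pig 13.

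Of the 7 FACITs tested, 3 were called lower in pig 13. COL16A1, a chain found near dermal fibrils and in the basement membrane zone, was at 397, 372, 398 and 413 CPM in pig 14 and 215, 237, 242 and 272 CPM in pig 13, controls first. The pig difference was -0.71 ± 0.10 and the injection difference 0.13 ± 0.10. COL14A1, a FACIT of interstitial collagen fibrils, was at 631, 594, 555 and 425 CPM in pig 14 and 219, 231, 294 and 328 CPM in pig 13. It lay 2.07-fold lower in pig 13. COL21A1 was at 39.1, 38.6, 27.6 and 32.6 CPM in pig 14 and 13.2, 18.2, 20.1 and 17.4 CPM in pig 13, 1.99-fold lower. COL19A1 (2.60 to 5.92 CPM), COL22A1 and COL9A3 were low. COL9A1, a cartilage FACIT, was the member that failed the filter, with 0 counts in control 7b of pig 13, where 3 counts would be 0.0819 CPM, and 2 to 21 counts elsewhere.

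COL17A1, of the dermal-epidermal junction, had its lowest values in the controls of pig 14. The gene (ENSSSCG00000010607, chromosome 14, 114959408 to 115064783) was at 559 and 543 CPM in controls and 867 and 1280 CPM at injected sites of pig 14. Pig 13 had 1682 and 1240 CPM in controls and 1143 and 1197 CPM at injected sites. The injected sites of pig 14 were thus above its controls, 1.95-fold in the ratio of means, and those of pig 13 were below theirs, by 1.25-fold. The pig difference was 0.77 ± 0.27 (adjusted p = 0.102). Per kilobase COL17A1 was at 0.218 to 0.315 of KRT5, the keratin of basal keratinocytes, a 1.44-fold range over biopsies in which COL17A1 itself ran from 543 to 1682 CPM. This ratio, like that of COL1A1 to DCN below, was chosen after the values were seen. The ratios of COL1A1 to PDGFRB, COL6A6 to COL6A5 and COL17A1 to COL7A1 were not among those planned either. Per kilobase COL7A1, the type VII chain, was at 0.0568 to 0.102 of KRT5, a 1.80-fold range.

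**Figure D5:**
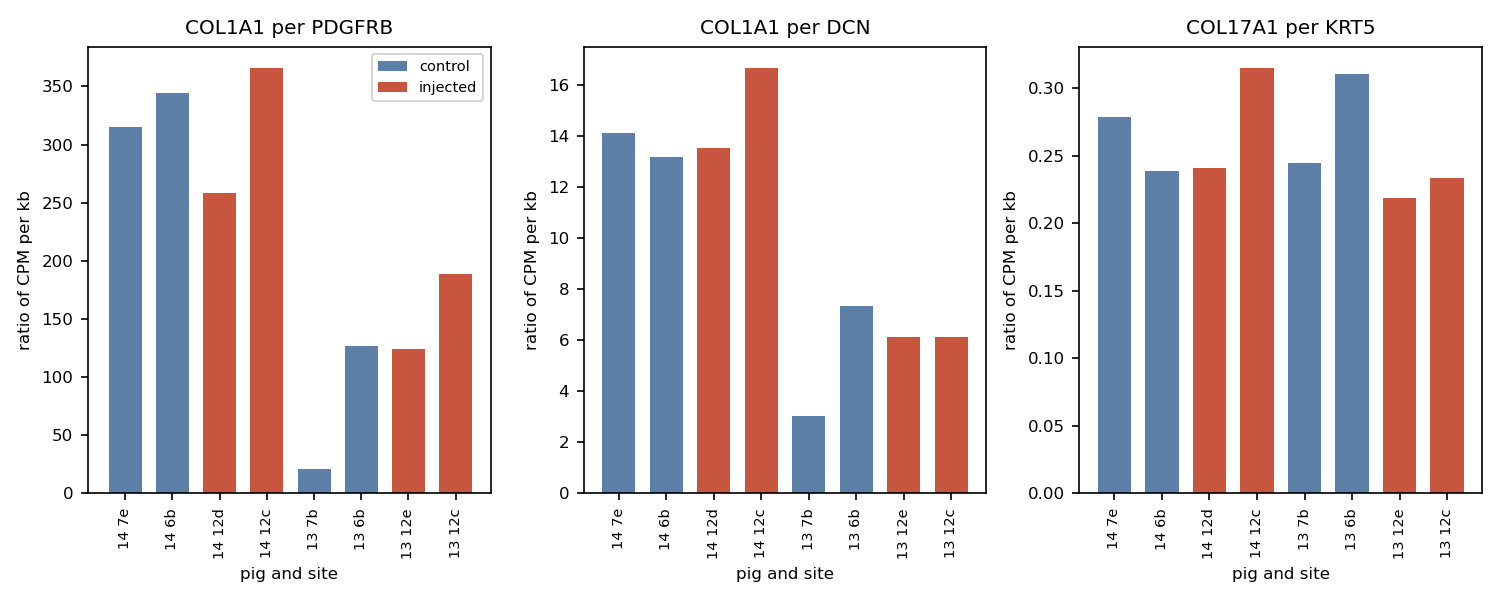
Bars show the ratio of CPM per kilobase of COL1A1 to the fibroblast receptor gene PDGFRB, of COL1A1 to DCN and of COL17A1 to KRT5, 1 bar per biopsy, coloured by control or injected, each axis from 0. COL17A1 to KRT5 spans a 1.44-fold range and COL1A1 to PDGFRB a 17.7-fold range, with control 7b of pig 13 lowest in both COL1A1 ratios.

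COL18A1, the multiplexin of epithelial and vascular basement membranes, was at 191, 150, 213 and 249 CPM in pig 14 and 408, 293, 285 and 231 CPM in pig 13, controls first. COL15A1, its relative in vessel and muscle basement membranes, was at 139, 93.0, 161 and 83.7 CPM in pig 14 and 59.6, 54.6, 83.6 and 76.9 CPM in pig 13, and was called lower in pig 13. COL4A2, a chain of the main type IV network, was at 591, 347, 545 and 310 CPM in pig 14 and 394, 300, 415 and 363 CPM in pig 13. It did not separate animals or treatments, at -0.29 ± 0.22 and 0.01 ± 0.22. COL4A5 ran from 57.4 to 79.9 CPM and COL4A6, its neighbour 1422 bases away on chromosome X and transcribed outwards, from 24.0 to 43.6 CPM. COL4A3 and COL4A4, chains of the glomerular network, were low in skin. COL4A4 was at 1.24, 1.07, 1.31 and 0.993 CPM in pig 14 and 0.164, 0.0907, 0.0657 and 0.292 CPM in pig 13. The values of pig 13 rest on 6, 3, 2 and 11 counts, and 3 counts are 0.0796 to 0.0986 CPM in its biopsies. The spans of COL4A3 and COL4A4 overlap by 514 bases on opposite strands of chromosome 15.

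A further model let the injection difference vary between the animals, and its interaction term is that variation. It called 0 of the 38 members in edgeR, against 0% of all genes. At an unadjusted p under 0.05 it gave 11 members, or 28.9%, against 8.22% of all genes. DESeq2 called 1 member, COL17A1, with a lower response in pig 13, and 0.121% of all genes in that direction (24 of 19862). COL4A6, COL17A1 and COL14A1 had the smallest p, with interactions of -0.88 ± 0.21, -1.28 ± 0.32 and 0.79 ± 0.23 (log2, pig 13 minus pig 14; adjusted p between 0.439 and 0.477 in edgeR). COL4A6 was at 24.0 and 28.1 CPM in controls and 33.8 and 42.7 CPM at injected sites of pig 14, and at 43.6 and 42.4 CPM in controls and 33.7 and 34.8 CPM at injected sites of pig 13. Without control 6b of pig 13, 5 members were called, COL1A1, COL1A2, COL3A1 and COL5A1 with a higher response in pig 13 and COL17A1 with a lower one. In that fit control 7b alone stood for the controls of pig 13, and calls over all genes went from 0 to 313 of 20175, 0.843% with a higher and 0.709% with a lower response.

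Control 7b of pig 13 was the lowest biopsy for 21 of the 39 members and the highest for 7. The shares of all genes with their lowest or highest value in 7b were not counted. Against control 6b of the same pig, 7 of 38 members were at least 2-fold lower in 7b, or 18.4%, against 6.04% of all genes, and 0 were 2-fold higher, against 3.49%. COL1A1 was 4.7-fold, COL11A1 4.6-fold, COL3A1 3.9-fold and COL1A2 3.6-fold lower there, followed by COL8A2, COL5A1 and COL6A6. COL6A3 differed by only 1.04-fold and COL14A1 by 1.05-fold. Summed, the fibroblast markers were at 2018 CPM in 7b and 2672 to 4209 elsewhere, but they did not all move together. PDGFRB was at 420 CPM in 7b and PDGFRA at 124 CPM, each the highest of the 8 biopsies. DCN, a proteoglycan that binds collagen fibrils, was at 878 CPM, the lowest. The fibroblast markers THY1, MFAP5 and DPT were also lowest in 7b, and LUM, FAP and FBLN1 were at neither extreme. The ratio of COL1A1 to DCN per kilobase was 3.02 in 7b and 6.14 to 16.7 elsewhere. Differentiated keratinocyte markers summed to 20020 CPM in 7b and 4122 to 10150 elsewhere, and basal keratinocyte markers to 20260 and 6619 to 15070. Hair follicle markers summed to 1005 CPM in 7b and 2471 to 4103 elsewhere. The part of these markers, those of fibroblasts included, in the low collagen share was not tested.

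Injected 12d of pig 14 was the highest biopsy for 9 members, COL4A4, COL6A6, COL8A1, COL8A2, COL11A1, COL11A2, COL15A1, COL27A1 and COL28A1. Control 6b of pig 14 was the highest for 11 members, and the matching shares of all genes were not counted. The cartilage and tendon gene COMP was at 29.6 CPM in 12d and at 0.267 to 2.31 elsewhere, and FMOD, a proteoglycan of collagen fibrils, at 244 CPM and 17.9 to 51.7. The 5 cartilage markers summed to 110 CPM in 12d and 33.8 to 82.4 elsewhere, and the COMP value alone exceeds the gap to the next biopsy. ACAN, the main cartilage proteoglycan, was at 20.5 CPM in 12d, below the 21.8 to 24.3 CPM of 3 pig 13 biopsies. The part of these genes in the collagen values was not tested.

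The remaining members were low. COL10A1, the hypertrophic cartilage chain, was at 2.87 to 6.65 CPM, COL23A1 at 5.87 to 10.6 and COL26A1 at 3.75 to 9.58 CPM. COL25A1, a transmembrane collagen known from neurons, was at 2.51, 1.57, 1.90 and 2.69 CPM in pig 14 and 0.546, 0.756, 0.526 and 0.504 CPM in pig 13, controls first. COL28A1, known from peripheral nerve, was at 4.31 to 5.50 CPM in pig 14 and 1.69 to 3.17 in pig 13. Both were called lower in pig 13.

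A further 5 collagen genes carry no symbol in the series table, so they are not members, and they were named from the reference gene tables. COL7A1, the anchoring fibril chain, was at 250, 205, 326 and 474 CPM in pig 14 and 583, 594, 438 and 423 CPM in pig 13, controls first. Its interaction was -1.26 ± 0.27 (adjusted p = 0.391 in edgeR, 0.00692 in DESeq2), with the same order of sites as COL17A1 in pig 14. COL17A1 was at 3.03 to 4.20 of COL7A1 per kilobase. COL4A1, the partner of COL4A2, was at 374, 220, 381 and 211 CPM in pig 14 and 326, 215, 288 and 228 CPM in pig 13. Its deposited gene model covers 2651 bases of exons and ends 108665 bases from COL4A2, where the RefSeq model ends 106 bases away, so its level per length is uncertain. COL9A2, a chain of cartilage type IX, was at 4.06, 2.71, 4.67 and 3.86 CPM in pig 14 and 7.27, 6.80, 7.26 and 5.65 CPM in pig 13. It was called higher in pig 13, at 0.82 ± 0.19 (adjusted p = 0.0225 in edgeR), a direction in which no member was called. COL20A1 and COL24A1 were at 0.0819 to 0.318 and 2.37 to 5.80 CPM.

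Genes that make, export, join, degrade, bind and regulate collagen were looked at through 6 lists. For injected against control 0 of their 100 genes tested were called, in edgeR and in DESeq2. Their median log2 differences lay between 0.02 and 0.19. At an unadjusted p under 0.05 they held 3 genes, MMP13, ITGA11 and TGFB2, or 3% against 4.54% of all genes. Between pigs, 12 of the 100 listed genes were called lower in pig 13 and 5 higher, against 6.39% and 4.34% of all genes. Of 21 folding and modification genes, 5 were lower and 2 higher. SERPINH1, the procollagen chaperone HSP47, was at 404, 412, 366 and 373 CPM in pig 14 and 131, 121, 170 and 184 CPM in pig 13, controls first, a log2 difference of -1.38 ± 0.14. FKBP10, a prolyl isomerase of procollagen, was at -1.12 ± 0.19, with P3H3, P4HA2 and P4HA3 also lower, and P3H2, a prolyl 3-hydroxylase, was higher at 1.05 ± 0.16, with TMEM38B.

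In the export and cleavage list, with 14 genes tested, BMP1, a procollagen C-proteinase, was called lower in pig 13 and MIA2 higher. LUM was the called gene of 14 in cross-linking and fibril assembly, and MRC2, an endocytic collagen receptor, of 18 in degradation, both lower. Of 12 receptors GP6 and MRC2 were lower and ITGA10 higher. GP6 was at only 0.159 to 1.24 CPM, so its call rests on few counts, and MRC2 was at 178 to 571 CPM. Of 22 regulators 3 were called lower and CCN2 higher. With 6.39% of all genes called lower and 4.34% higher, a single called gene in a list of 14 to 22 is near the share of all genes. CREB3L1, a transcription factor known to activate type I collagen genes, was at 379, 407, 290 and 336 CPM in pig 14 and 52.0, 156, 141 and 155 CPM in pig 13, -1.50 ± 0.35. TGFB3 and RFX5 were the other lower genes. Chosen after their values were seen, the lysyl oxidase LOX ran from 440 to 585 CPM in pig 14 and 199 to 738 in pig 13, and SPARC, a collagen-binding matrix protein, from 7443 to 9633 and 2008 to 7013 CPM.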

How the data were processed

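Per the file headers, the authors deposited counts of reads for each Ensembl gene in 8 biopsies, with CPM (counts relative to the assigned total of a biopsy) and RPKM (CPM relative to gene length). The deposited CPM equalled that computed from the counts. The deposited RPKM was not used, only the gene length beside it. Per the submitters' processing notes, the tools were STAR 2.5.1a, bcl2fastq and, in Subread, featureCounts 1.4.6-p5, on build Sscrofa11.1. The table had 32388 rows for 31907 genes, and 425 genes on several identical rows were kept once. The deposited file of control 7b ended after 607 genes, so its counts came from the series table.

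Genes were filtered with filterByExpr of edgeR 4.0.16 (R 4.3.3, minimum count 10, 19862 genes kept), scaled by TMM, and tested by the quasi-likelihood F test with pig and treatment, with Benjamini-Hochberg adjustment over all genes tested. DESeq2 1.42.0 was the alternative. The pig was the block, since the sample titles give the animal. Deviations from group means correlated at 0.196 to 0.584 between injected and control biopsies of the same pig and at -0.526 to -0.251 across pigs. Deviations from a group mean cancel out within the group, so the negative values across pigs follow from the positive ones within pigs. No pair of replicates agreed within sampling noise (chi-square per degree of freedom at least 30). The biological coefficient of variation was 19.8%. In simulated data of the injected comparison (19862 genes), 13 of 50 genes changed 1.5-fold and 39 of 50 changed 2-fold were recovered, with 13 false calls in 163. The changed genes were drawn from all genes but the lowest in CPM, with independent noise for each gene. The rates are thus not those of collagen chains as variable as COL1A1 (SE 0.45 in log2), for which recovery was not simulated. Members and lists were chosen with earlier results of these data known. Sites are given in full for most of the genes chosen by level or by test. These were the 10 members highest in mean CPM, the highest of each class and those called. Members with the 3 smallest p in each direction or in the interaction were added. COL1A1, COL1A2, COL3A1, COL4A1, COL4A2, COL7A1 and COL17A1 were included whatever their values. Of the chosen genes, COL13A1, COL23A1, COL26A1, COL27A1 and COL28A1 are given as ranges, and COL22A1 by its log2 difference only.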

Additional observations from a re-analysis of the deposited data

Results flagged for a closer look

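In groups of 4 biopsies, 4 of 74 groups looked at held a biopsy far from the others, where chance gives about 5%. COL8A1 was at 41.9 CPM in injected 12d of pig 14, against 7.87 to 12.9 at the other injected sites. COL4A6 was at 42.7 CPM in injected 12c of pig 14, against 33.7 to 34.8. COL26A1, a collagen of little known function in skin, was at 8.28 CPM in the same biopsy, against 6.42 to 6.61. The transmembrane collagens held 0.0842% of counts in injected 12d of pig 14, against 0.120% to 0.126% at the other injected sites.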

How the results depend on the processing

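For injected against control 0 members were called in edgeR under each scaling, without the filter, in either pig alone and with any 1 biopsy left out, and 1 in DESeq2. With no replicate block, the pig left out of the model, 0 members were called. Between pigs edgeR called 15 members, RLE scaling 15, no filter 12, total counts 13, DESeq2 22 and fits without 1 biopsy 7 to 14. The interaction gave 0 members in edgeR, 1 in DESeq2 and 0 to 5 with 1 biopsy left out. The difference in collagen share was 1.85 percentage points, 1.78 without rRNA and mitochondrial genes, 1.85 with the 5 collagen genes without a symbol, 0.10 without COL1A1, COL1A2 and COL3A1, and 0.246 to 3.46 with 1 biopsy left out. Differences of genes under 1 CPM rest on few counts, and 2 pigs limit all comparisons.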
